A study of Rattus norvegicus with 12 samples.

Results

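MicroRNA levels of rat parotid acinar cells were compared between the 6 samples of the earlier ages, E20 and P5, and the 6 samples of the later ages, P15 and P25. Age is counted in embryonic (E) or postnatal (P) days. All rats were Sprague Dawley, given as albino, and the labels name no treatment or sex. Each age had 3 samples, which per the study's methods came from separate litters. Acinar cells were recognized by their structure on lightly stained sections and taken by laser capture microdissection, and 1 ng of total RNA per sample was reverse transcribed and measured by qRT-PCR on a mouse and rat panel. Heads were embedded and sectioned up to P5, whereas the dissected gland was embedded at the older ages, so that the preparation of the tissue and the side of the comparison cannot be told apart. The result of each well is a threshold cycle (CT), the PCR cycle at which the signal passes a threshold, and a well without a signal is undetermined. An assay was included when it had a CT in at least 4 of the 6 samples on either side. This held for 286 of the 375 miRNA assays. Among the 286 assays, 199 met the requirement on both sides and were tested, 77 met it in the early samples alone and 10 in the late samples alone.

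The late arrays carried fewer signals than the early arrays. Between 224 and 307 of the 375 assays (median 292) had a CT in the early samples, and between 179 and 273 (median 223) in the late samples (exact permutation test, two-sided, p = 0.0173). P5 replicate 1 and P15 replicate 1 held the fewest on their sides. The array median CT ran from 31.3 to 34.1 early and from 32.9 to 34.8 late (exact permutation test, p = 0.0216), and the 120 assays with a CT in all 12 samples also had a later median CT on the late side (30.3 against 31.8 on average, exact permutation test, p = 0.0411). Each value below is therefore relative: it is the median CT of the array minus the CT of the assay, in cycles, so that a higher value stands for more template and 1 cycle for about 2 times more. Differences are late minus early, and the median difference of the 199 tested assays was 0.20 cycles. With captured cells, fewer cells of a type and less RNA per cell cannot be told apart.

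A microRNA is a short RNA that, loaded on an Argonaute protein, pairs through its seed with sites in messenger RNAs and lowers their stability or translation. miRNAs that share a seed are expected to share many targets. In exocrine and endocrine glands, miR-375 and miR-148a are known from secretory cells, the miR-200 family from epithelium, where it holds down the repressors Zeb1 and Zeb2, and the let-7 family from tissues that mature, where it lowers growth genes such as Hmga2 and Lin28. The miR-17-92 cluster and its relatives are known from dividing cells, miR-199a and miR-214 from mesenchyme, and the large miRNA cluster of the imprinted Dlk1-Dio3 domain from fetal tissue.

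The mature rat sequences on which the results turn are given as RefSeq lists them for GRCr8, from 5′ to 3′, with the seed (bases 2 to 8) in capitals. A mature sequence was taken from there for 136 of the 286 assays, and some assays, such as miR-320, miR-30b and miR-30d, were left out. The first group holds miR-375 (chr9:83906591-83906612, minus strand) and miR-148a (chr4:81664447-81664467, minus strand), which were higher late, with the relatives of miR-148a that share its seed. The second holds the let-7 members with the largest differences, let-7b at chr7:118684044-118684065 and let-7c close by at chr7:118683636-118683657, both on the plus strand. The third group, lower late, holds miR-214 (chr13:77121713-77121733, plus strand), members of the Dlk1-Dio3 cluster, and the 4 tested miRNAs of this RefSeq set with the seed of miR-17. miR-340-5p (chr10:34894668-34894689, plus strand) had a CT in the early samples alone.
miR-375-3p: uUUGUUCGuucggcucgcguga
miR-148a-3p: uCAGUGCAcuacagaacuuug
miR-148b-3p: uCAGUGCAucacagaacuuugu
miR-152-3p: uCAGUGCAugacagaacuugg
let-7b-5p: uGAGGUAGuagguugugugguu
let-7c-5p: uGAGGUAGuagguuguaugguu
let-7a-5p: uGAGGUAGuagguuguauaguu
miR-214-3p: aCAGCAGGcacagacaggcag
miR-127-3p: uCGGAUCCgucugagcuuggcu
miR-434-3p: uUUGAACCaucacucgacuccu
miR-410-3p: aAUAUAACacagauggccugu
miR-17-5p: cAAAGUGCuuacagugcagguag
miR-106b-5p: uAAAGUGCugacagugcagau
miR-93-5p: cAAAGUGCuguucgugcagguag
miR-20a-5p: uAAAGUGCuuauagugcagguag
miR-340-5p: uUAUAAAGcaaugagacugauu

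Across the pooled ages, miR-375, miR-148a, let-7b, miR-320, miR-220 and miR-683 rose and miR-214 fell. These were the 7 of 199 tested assays (3.52%) that passed an adjusted p of 0.05 in limma, 6 higher late (3.02%) and 1 lower late (0.503%). At an unadjusted p of 0.05, limma passed 49 assays (24.6%), of which 21 were higher and 28 lower late, where 9.95 would be expected by chance. The exact permutation test of the same values passed 47 (23.6%), and 40 assays (20.1%) passed both. After Benjamini-Hochberg adjustment the permutation test passed 0, with a smallest adjusted p of 0.108. The smallest p that 6 samples against 6 allow is 0.00216, or 0.108 after adjustment with the 4 assays (2.01%) that reached the smallest p. The lowest late value lay above the highest early value for 5 assays (2.51%). The highest late value lay below the lowest early value for 3 (1.51%), which made 8 of 199 (4.02%) without overlap. The late mean was above the early mean for 118 assays (59.3%).

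miR-375 had the largest difference of the comparison. In the early samples it had a CT in E20 replicates 1 and 3, at -2.71 and -5.40, and in P5 replicates 2 and 3, at -0.59 and -0.57, and it was undetermined in E20 replicate 2 and P5 replicate 1. In the late samples it lay between 1.98 and 6.51 with a median of 5.25. All 6 late values were above all 4 early values. The difference was 7.02 cycles (SE 1.03), or 129-fold, with an adjusted p of 0.00138 in limma and p = 0.00476 in the exact permutation test. The mean CT passed from 34.5 to 29.1 while the array median became later, so this rise was present in the CT itself. Its mean value was -4.06 ± 1.90 at E20 (SD, n = 2), -0.58 ± 0.01 at P5 (n = 2), 3.58 ± 1.54 at P15 (n = 3) and 5.81 ± 0.60 at P25 (n = 3).

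miR-148a, which is abundant in pancreas and other secretory glands, lay between 2.48 and 6.09 (median 4.38) in the early samples and between 4.84 and 8.50 (median 7.21) in the late samples. The sides overlapped, because P15 replicate 1 (4.84) lay below the P5 samples. The difference was 2.87 cycles (SE 0.76, 7.30-fold, adjusted p = 0.0461 in limma). Its levels also differed inside each side, by 2.59 cycles from E20 to P5 (unadjusted p = 0.00346) and by 2.07 from P15 to P25 (unadjusted p = 0.0143), neither of which passed after adjustment. The relatives with the same seed did not pass the test. The difference was -0.80 cycles (SE 0.57) for miR-148b and 0.53 (SE 0.63) for miR-152.

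let-7b lay between 3.81 and 5.66 (median 5.17) early and between 6.43 and 8.07 (median 7.56) late, without overlap. It rose by 2.39 cycles (SE 0.52, 5.24-fold, adjusted p = 0.0146 in limma), and its mean CT passed from 27.6 to 26.5. miR-320 lay between 2.25 and 4.08 early and between 3.74 and 6.01 late, and rose by 2.08 cycles (SE 0.54, 4.23-fold, adjusted p = 0.043 in limma). Its sides overlapped, with E20 replicate 1 (4.08) above P15 replicate 1 (3.74). Its mean CTs were 29.4 early and 28.7 late.

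miR-220 and miR-683 were near the end of the measurable range. The rat assay of miR-220 lay between -5.88 and -3.05 early and between -2.04 and 0.00 late, with a difference of 3.02 cycles (SE 0.59, adjusted p = 0.0098 in limma) and mean CTs of 36.9 and 35.2. The mouse assay of miR-220 did not follow it, with a CT in 4 early samples and in 1 late sample. miR-683 lay between -5.14 and -3.60 early and between -2.74 and -1.05 in the 5 late samples with a CT, with a difference of 2.55 cycles (SE 0.55, adjusted p = 0.0146 in limma) and mean CTs of 36.8 and 35.6. Neither assay overlapped between the sides. With CTs above 35 counted as undetermined, neither of them could be tested.

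miR-214, transcribed with miR-199a from the strand opposite the Dnm3 gene, was the only assay called lower late. Its early values were close together, between 2.30 and 3.69 with a median of 2.96, and its late values spread from -3.39 to 1.90 with a median of 0.17. The sides did not overlap. It fell by 2.96 cycles (SE 0.75), 7.78-fold, with an adjusted p of 0.043 in limma and p = 0.00216, the smallest possible, in the exact permutation test. The means were 3.25 ± 0.41 at E20, 2.55 ± 0.43 at P5, 1.16 ± 1.02 at P15 and -1.28 ± 1.92 at P25 (SD, n = 3 each).

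**Figure D1:**
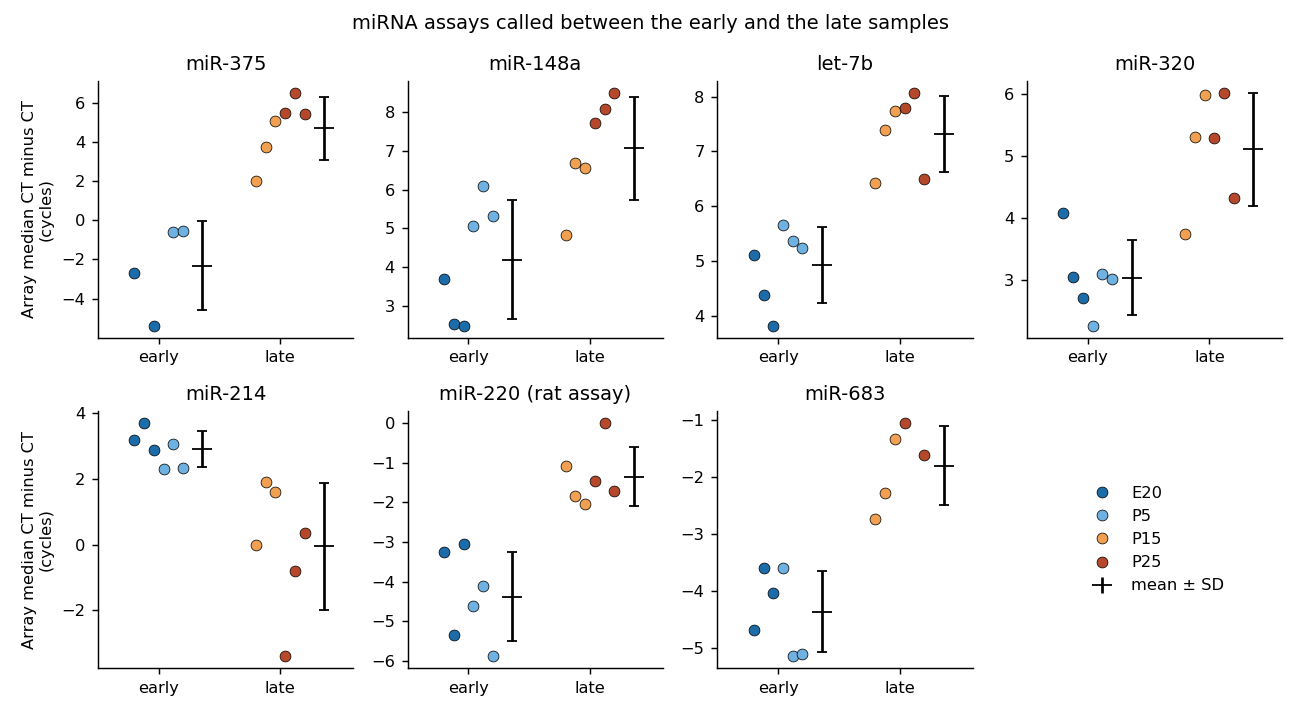
Value of the 7 called assays in each sample, as array median CT minus CT in cycles (vertical axes differ between panels), for the early samples (E20 and P5) and the late samples (P15 and P25). Points are samples colored by age, and bars give the mean and SD over the samples of a side with a CT. The late values of miR-375, let-7b, miR-220 and miR-683 lie above and those of miR-214 below all early values, while miR-148a and miR-320 overlap.

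The calls differed in how far they depended on the samples. miR-375 and miR-220 were called without any 1 of the 12 samples, with differences between 5.99 and 7.60 and between 2.72 and 3.29 cycles. With CTs above 37 counted as undetermined, both had too few early values to be tested. miR-683 lost its call without P25 replicate 1 (2.37, adjusted p = 0.054 in limma) and let-7b without E20 replicate 3 (2.17, adjusted p = 0.0531) or P25 replicate 1 (2.30, adjusted p = 0.0512). miR-320 was not called without E20 replicates 2 (2.09) or 3 (2.01), P5 replicates 1 (1.93) or 2 (2.09), or P25 replicates 1 (2.05) or 2 (1.90). miR-148a was not called without any E20 replicate (2.77, 2.53 and 2.53), without P5 replicate 1 (3.04) or without any P25 replicate (2.73, 2.67 and 2.58). miR-214 was not called without any E20 replicate (-2.90, -2.80 and -2.96), P5 replicates 1 (-3.08) or 2 (-2.93), or any P25 replicate (-2.29, -2.81 and -3.04). The number of calls moved as well. It was 4 without E20 replicate 2, 3 without E20 replicate 3, 4 without P5 replicate 1, 14 without P5 replicate 3, 12 without P15 replicate 1, 16 without P15 replicate 2, 17 without P15 replicate 3, 2 without P25 replicate 1 and 4 without P25 replicate 2. With the median CT of the 120 assays present in all 12 samples as the reference, 21 assays were called in limma (13 higher and 8 lower), the 7 among them, and 19 in the exact permutation test. With the mean of the same assays the split was 9 higher and 20 lower, with no normalization 1 and 23, and with the small nuclear RNAs 0 assays were called and 7 passed unadjusted. The small nuclear RNAs themselves varied widely. The CT of RNU1A1 ran from 17.8 in P5 replicate 2 to 34.6 in P25 replicate 3, and U6 was undetermined in P15 replicate 3 and P25 replicate 3.

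**Figure D2:**
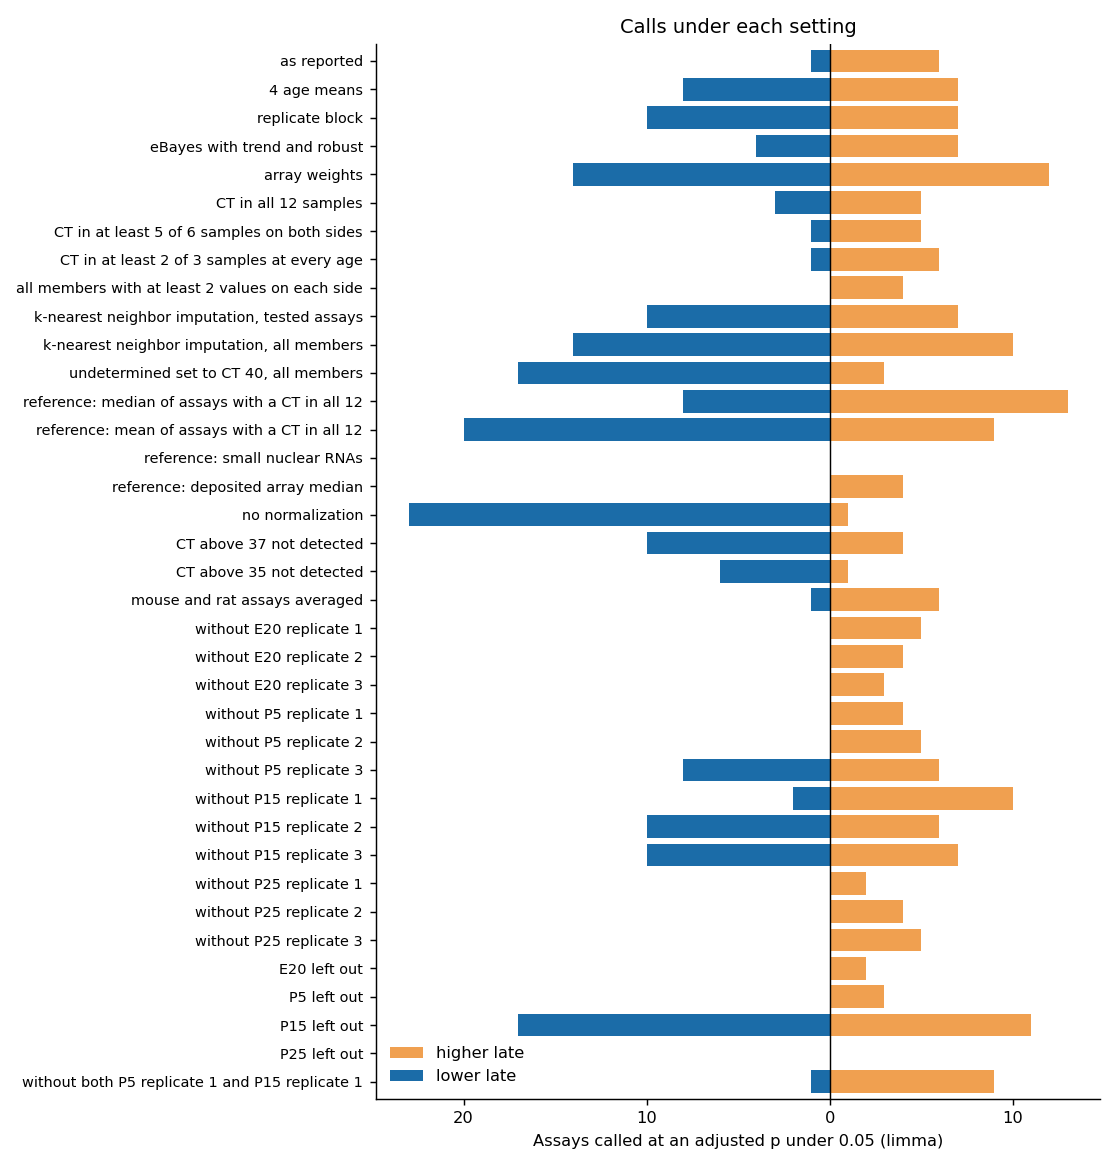
Number of assays called at an adjusted p under 0.05 in limma under each setting, with those higher late to the right and those lower late to the left of 0. The bars range from 0 calls with the small nuclear RNAs as reference, or without P25, to 29 calls with the mean of the assays present in all samples as reference.

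Secretory-cell miRNAs and the miR-200 family were mostly higher late. Of the 5 tested secretory-cell assays, miR-375 and miR-148a rose and the other 3 did not pass, namely miR-7a (-1.63, SE 0.88) and the rat and mouse assays of miR-217 (1.32, SE 0.92, and 0.86, SE 0.59). The median of the 5 was 1.32 cycles beside 0.20 over all tested assays. The 7 assays of the miR-200 family were measured in all 12 samples, with differences from 0.63 to 1.94 and a median of 1.40. None passed after adjustment in limma, and 3 of 7 passed unadjusted beside 10.6% of all tested assays higher late, namely both assays of miR-200c and the mouse assay of miR-200b. The rat assay of miR-200c lay between 3.59 and 4.69 early and between 3.88 and 7.83 late (difference 1.94, SE 0.61, adjusted p = 0.0696 in limma), and the mouse assay between 2.84 and 4.76 and between 3.07 and 7.27 (1.86, SE 0.67, adjusted p = 0.0926). P15 replicate 1 was the low late sample of both. Without it, the same 3 assays were called, at 2.42 and 2.39 for miR-200c (mouse and rat assay) and 2.11 for miR-200b, and the median of all 7 was 1.86. Without normalization the median of the family was 0.08 beside -1.05 over all tested assays.

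The other epithelial list differed in sign from the miR-200 family. All 5 tested assays of miR-203, miR-205 and the miR-183, miR-96 and miR-182 cluster had a lower late mean, with a median of -0.79 cycles, and 0 passed after adjustment in limma against 2 of 5 unadjusted, beside 14.1% of all tested assays lower late. miR-205, a miRNA of stratified and basal epithelium, lay between 5.96 and 7.45 early and between 4.18 and 6.83 late (difference -1.29, SE 0.57, adjusted p = 0.175 in limma). miR-203, known from the suprabasal layers of skin, lay between -2.47 and 1.27 early and between -3.77 and -0.33 late (-1.76, SE 0.76, adjusted p = 0.175 in limma). Both overlapped between the sides. Referred to the small nuclear RNAs, whose own CTs varied widely, the list's median turned to 0.46, beside 1.40 over all tested assays.

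Of the 10 let-7 assays tested, let-7b rose, the other 9 did not pass after adjustment in limma, and 4 of the 10 passed unadjusted, beside 10.6% of all tested assays higher late. Differences ran from -0.05 (let-7i) to 2.39, 9 of 10 were above 0, and the median was 0.73 cycles. let-7c, which lies beside let-7b on chromosome 7, lay between 1.75 and 3.64 early and between 3.36 and 6.21 late (2.06, SE 0.59, adjusted p = 0.0598 in limma). let-7a lay between 1.77 and 3.15 early and between 3.02 and 4.29 late (1.29, SE 0.48, adjusted p = 0.111 in limma). Its mean CTs of the sides were equal (30 cycles), so it was higher late only relative to the array median, which became later. The 9 tested assays with a RefSeq sequence and the let-7 seed GAGGUAG thus ranged from no difference to the 5.24-fold of let-7b. Without normalization the median of the family turned to -0.59, beside -1.05 over all tested assays. The 6 tested assays of the miR-30 family lay between 0.54 and 1.27, with a median of 0.77 that turned to -0.55 without normalization, and 0 passed adjusted or unadjusted in limma.

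The miR-29 family, which represses collagens and other matrix genes, had a CT in 10 of 18 early wells and 13 of 18 late wells. miR-29c lay between -3.64 and 0.00 early and between -3.35 and 1.93 late (2.33, SE 0.91, adjusted p = 0.136 in limma). miR-29a had a CT in 1 early sample (-2.58) and in 4 late samples (-0.55 to 0.50), and miR-29b in 3 early samples (-6.65 to -3.60) and 4 late samples (-3.26 to -0.07). Both were included through the late side alone and had too few early values to enter the main test. That their few measured values did not overlap therefore supports no difference. Fisher's exact test of their detection did not pass (p = 0.242 and 1). Over all 286 assays with undetermined wells filled by k-nearest neighbor imputation, limma called both, miR-29a at 1.89 cycles (adjusted p = 0.0343) and miR-29b at 2.47 (adjusted p = 0.0496). All early values of miR-29a but 1 were filled in for that fit, which takes them as measured, so these calls rest on the imputation. With undetermined wells at CT 40 neither was called (4.54, adjusted p = 0.0517, and 3.17, adjusted p = 0.0837), nor was miR-29b on its measured values (3.81, adjusted p = 0.0702).

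miRNAs associated with proliferation were mostly lower late, without passing after adjustment in limma. Of the 11 tested assays of the miR-17-92, miR-106a-363 and miR-106b-25 clusters, 9 had a lower late mean and the median was -0.88 cycles, and 2 of 11 passed unadjusted, close to the share of all tested assays that did so lower late (14.1%). These 2 share the seed AAAGUGC. miR-106b lay between -1.24 and 0.99 early and between -4.42 and -0.07 late (-2.35, SE 0.74, adjusted p = 0.0696 in limma), and miR-17 between 0.57 and 3.14 early and between -2.48 and 1.71 late (-2.22, SE 0.75, adjusted p = 0.0764). All 4 tested assays with a RefSeq sequence and this seed had a lower late mean, with -1.50 for miR-93 and -0.88 for miR-20a. The remaining 5 of the 16 assays of the clusters that entered the comparison (31.2%, beside 26.9% of all 286) had a CT in at least 4 early samples and in 1 to 3 late samples. Referred to the widely varying small nuclear RNAs, the median of the 11 turned to 0.28, beside 1.40 over all tested assays.

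The other cell cycle and fetal miRNAs all had a lower late mean in the 7 assays tested, with a median of -1.84 cycles, and 5 of them passed unadjusted, beside 14.1% of all tested assays lower late, and 0 adjusted in limma. miR-301a lay between 1.47 and 3.27 early and between -4.42 and 2.19 late (-2.92, SE 0.94, adjusted p = 0.0725 in limma). miR-301b (-2.18, SE 0.64) and miR-130a (-1.84, SE 0.64), which share the seed AGUGCAA, differed to a like extent. The mouse assay of miR-450a-5p, from a cluster on the X chromosome that also holds miR-503, lay between 1.01 and 3.09 early and between -0.67 and 0.82 late without overlap (-1.83, SE 0.55, adjusted p = 0.0696 in limma). The rat assay of miR-450a lay between 1.61 and 4.64 early and between 1.02 and 5.40 late, overlapping widely (-0.62, SE 0.74, adjusted p = 0.6 in limma). miR-503, which targets G1 cyclins, lay between 0.87 and 4.44 early and between -2.77 and 2.02 in the 4 late samples with a CT (-2.80, SE 0.94, adjusted p = 0.0764 in limma). In the list of the miR-15/16 family with miR-503, 4 of 7 tested assays had a higher and 3 a lower late mean, and miR-195 was higher by 2.07 (SE 0.86, adjusted p = 0.165 in limma).

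The Dlk1-Dio3 cluster was the largest list of the comparison. The 44 of its listed miRNA genes that RefSeq places there on GRCr8 lie within 282 kb at chr6:134298094-134579828. Of the list's 50 assays on the panel, 44 were included. Of these, 16 were tested and 28 met the requirement of 4 samples in the early samples alone, of which 3 had no CT in the late samples, 4 had a CT in 1 late sample, 9 in 2 and 12 in 3. Among the 16 tested assays 14 had a lower late mean, the median was -1.93 cycles beside 0.32 in the 183 other tested assays, and 9 passed unadjusted beside 28 of all 199 lower late (14.1%). After adjustment 0 passed in limma. miR-540 also lies in this span but was not on the list, so its assays count among the others. The difference of miR-540-3p was -0.39 cycles.

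miR-127, which lies antisense to the Rtl1 gene of this domain, had the lowest mean CTs of these 16 assays (27.3 early and 31.5 late). It lay between 4.57 and 6.21 early (median 5.05) and between -1.08 and 5.00 late (median 2.60), with P15 replicate 2 (5.00) alone reaching into the early range and P15 replicate 1 (-1.08) lowest. The difference was -2.96 cycles (SE 0.83, 7.79-fold, adjusted p = 0.0598 in limma). miR-434-3p lay between 2.61 and 4.75 early and between -3.59 and 3.77 late (-2.87, SE 0.98, adjusted p = 0.0764 in limma). The rat assay of miR-136 lay between -1.79 and 2.70 early and between -5.09 and 1.26 late (-3.11, SE 1.02, adjusted p = 0.076), and miR-410, at the far end of the cluster, between 0.05 and 1.74 and between -4.23 and 0.27 (-2.55, SE 0.83, adjusted p = 0.076). The exceptions were miR-758 (0.49) and miR-668 (0.97). miR-541 (1.18 to 4.06 early, -1.07 to 0.92 late) was the only tested assay of the cluster without overlap. The lower median was present under every reference run here, at -0.96 with the small nuclear RNAs, -1.76 with the median of the common assays and -3.29 without normalization.

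No miRNAs that mark acinar cells alone were listed, so the labelled cell type was checked by the markers of other cells, some of which moved with these differences. The 4 assays of the mesenchyme list all had a lower late mean, with a median of -2.43 cycles, and of them miR-214 fell and 3 in all passed unadjusted, beside 14.1% of all tested assays lower late. miR-199a-5p lay between 1.38 and 4.32 early and between -3.44 and 2.15 late (-2.80, SE 0.82, adjusted p = 0.0603 in limma). The summed level of this list, in multiples of the array median level and with undetermined wells as 0, ran from 12.4 to 55 early (median 33) and from 1.37 to 17.3 late (median 6.62). The 3 tested assays of the striated muscle list, miR-133b (-3.09, SE 0.89), the mouse assay of miR-1 (-2.27, SE 0.71) and miR-133a (-2.04, SE 1.31), were also lower late, and their list's summed level ran from 0.0895 to 74.8 early (median 25.4) and from 1.12 to 29.7 late (median 2.62). The summed level of the nerve and glia list ran from 4.49 to 32.3 early and from 2.35 to 15.5 late. Of its 6 tested assays 4 had a lower and 2 a higher late mean, from -2.30 (miR-124) to 1.98 (miR-132). The erythrocyte list, whose 3 assays had a CT in 16 of 18 early and 8 of 18 late wells, ran from 1.05 to 6.48 early and from 0 to 1.91 late. The part of these cells in the lower late values of the Dlk1-Dio3 cluster, the proliferation lists and miR-214 was not tested.

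The remaining marker lists lay nearer to the median of all tested assays. The leukocyte list had 7 tested assays, all with a higher late mean (median 0.63, or -0.50 without normalization), and 0 passed adjusted or unadjusted in limma. Of its 11 assays, 3 met the requirement in the early samples alone and 1 in the late samples alone. The list had a CT in 60 of 66 early wells and 49 of 66 late wells. Its summed level lay between 6.16 and 11.6 early and between 3.06 and 30.9 late. The endothelial miR-126-3p differed by 0.31 (SE 0.61), and the smooth muscle and pericyte list had a median of 0.24, although miR-145 was higher late by 2.67 (SE 1.25, adjusted p = 0.195 in limma). Without E20 replicate 1 that difference was 1.27. The liver miRNA miR-122 had a CT in 1 sample of each side and did not enter the comparison.

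**Figure D3:**
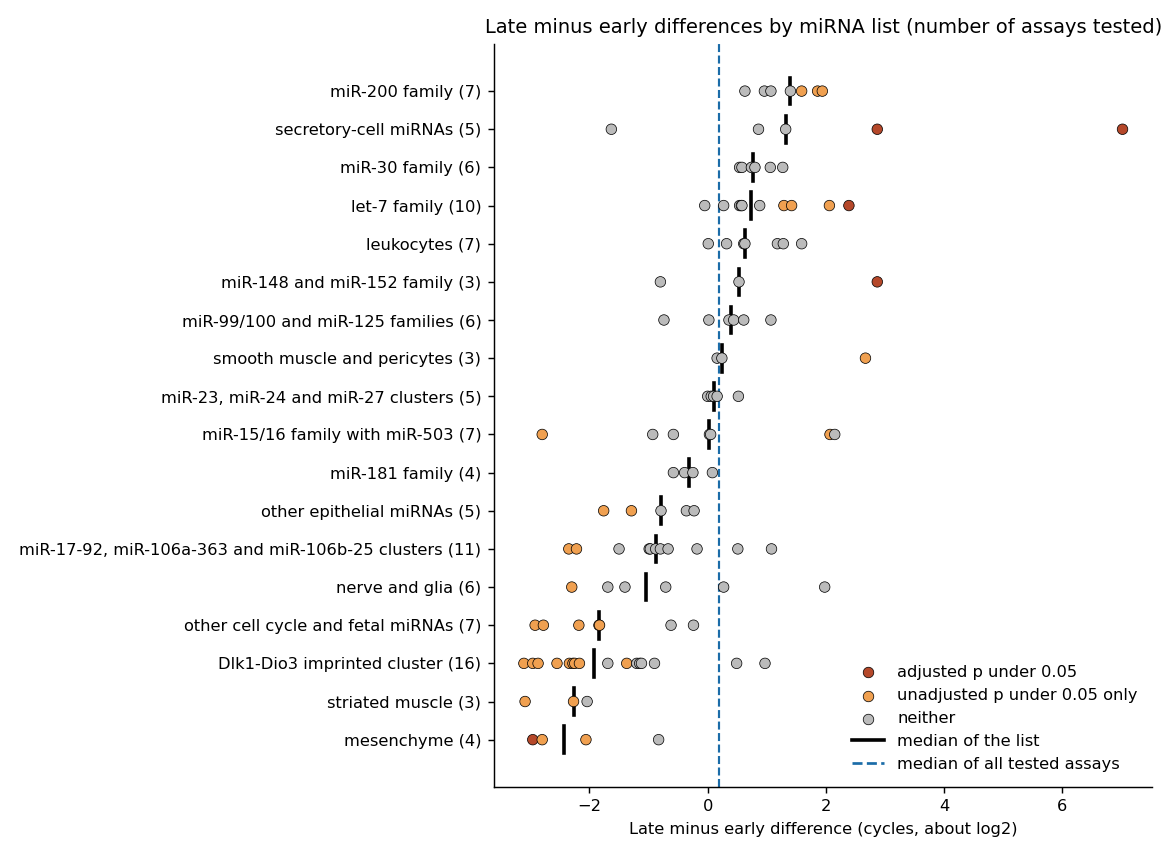
Late minus early difference of each tested assay in cycles, grouped by list, with the number of assays tested after the name of each list that has at least 3 and colors for the limma result. Black bars mark the median of a list and the dashed line the median of all 199 tested assays (0.20). The Dlk1-Dio3, mesenchyme, striated muscle and cell cycle lists lie mostly to the left, with medians from -2.43 to -1.84, and the miR-200 list (1.40) to the right.

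Detection gave a second view, which does not depend on the reference. In the 286 assays, 146 of 1716 wells were undetermined on the early side and 413 of 1716 on the late side. These assays were chosen by detection, 77 through the early side alone and 10 through the late side alone, which sets part of this difference. Over all 375 assays, the median number with a CT per array was 292 early and 223 late. Of the 350 assays with a CT in any sample, 6 had different frequencies of detection at an unadjusted p of 0.05 in Fisher's exact test, all more frequent early (1.71%), and 0 passed after adjustment (smallest adjusted p = 0.758). miR-340-5p was present in 6 of 6 early samples, at values between -3.63 and -1.49, and in 0 of 6 late samples (exact p = 0.00216 in Fisher's test). It was faint, with early CTs from 33.4 to 36.3. The rat assay of miR-340-3p did not follow it, with a CT in 4 early and 3 late samples. miR-323-3p, of the Dlk1-Dio3 cluster, had a CT in 5 early samples and 0 late samples. miR-298 and miR-296-5p, which lie together in the imprinted Gnas domain, were present in 6 early samples and only in P15 replicate 2 of the late samples. The early values of miR-298 ran from -2.86 to 2.99 and its late value was -5.25, and those of miR-296-5p ran from -0.70 to 1.85 with a late value of -1.02.

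The rat assays of miR-337 and miR-381, both of the Dlk1-Dio3 cluster, followed the same pattern, with 6 early samples and P15 replicate 2 alone. The mouse assays of these miRNAs were found more often late. miR-381 had a CT in 6 early and 3 late samples, miR-337-5p in 6 and 2, and miR-337-3p in 6 and 6. In the rat assays, the early values of miR-337 ran from -6.07 to 2.46 and those of miR-381 from -2.52 to 0.37, and the late values were -1.65 and -2.10. Further assays with a CT in 5 early samples and 1 late sample were miR-329, miR-339-3p, miR-670 and miR-465c-5p. The last 2 of these were faint, and with CTs above 35 counted as undetermined they were absent from both sides.

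Assays that met the requirement of 4 samples in the early samples alone made up 26.9% of the 286, 63.6% of the 44 Dlk1-Dio3 assays and 20.2% of the other 242. Most of these 77 also had late values: 33 had a CT in 3 late samples, 26 in 2, 13 in 1 and 5 in none. Of the 50 Dlk1-Dio3 assays, 37 had a CT in more early than late samples, 10 in equal numbers and 3 in more late samples. Of the 325 other assays, 132 had more early samples, 169 equal numbers and 24 more late samples. The 10 assays that met the requirement in the late samples alone were miR-29a, with a CT in 1 early sample, and miR-29b, miR-10a, the mouse assay of miR-146b, miR-185, miR-291a-3p, miR-297b-3p, miR-326, the rat assay of miR-421 and miR-711, with a CT in 3 early samples each. The other assays of 2 of these miRNAs did not follow them. The mouse assay of miR-421 had a CT in 6 early and 2 late samples (exact p = 0.0606 in Fisher's test), and the rat assay of miR-146b had one in all 12 samples. The early side was the deeper on most arrays, and the part of depth in these counts was not tested.

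**Figure D4:**
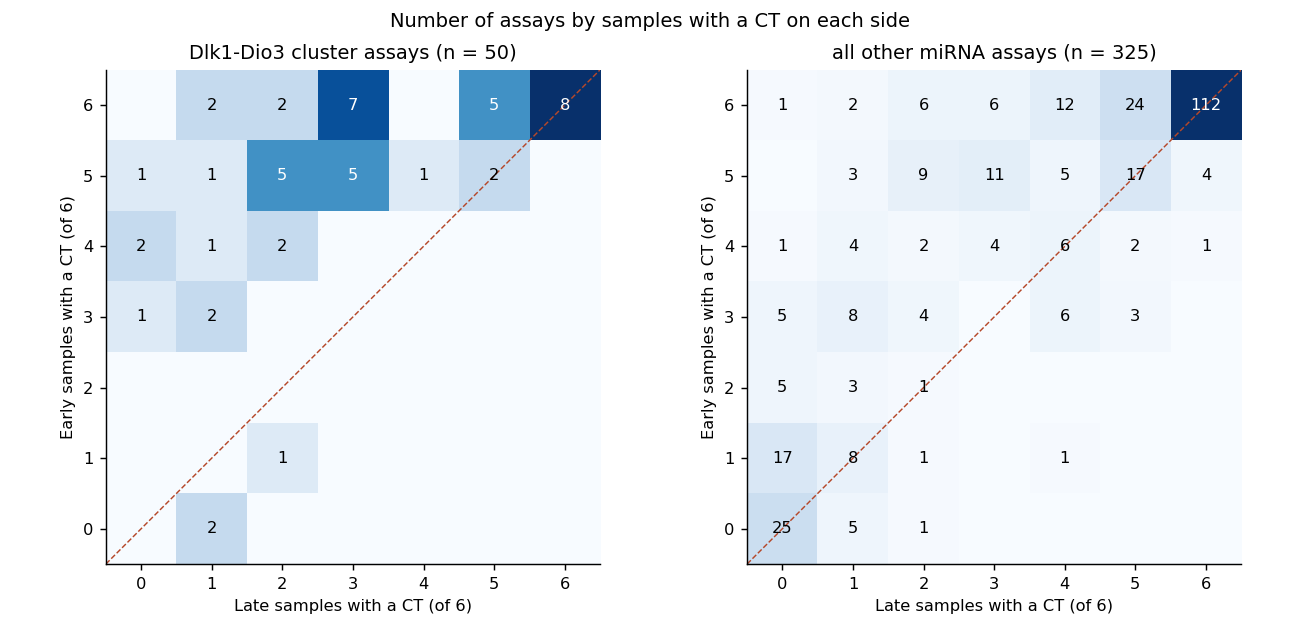
Number of miRNA assays by how many of the 6 early samples (vertical axis) and of the 6 late samples (horizontal axis) gave a CT, for the 50 Dlk1-Dio3 assays and the 325 other assays. Cells above the dashed diagonal hold assays with more early than late samples. They hold 37 of the 50 Dlk1-Dio3 assays and 132 of the 325 others.

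Pooling joins ages that may differ from each other, so the ages inside each side were compared in a model of the 4 age means. Between E20 and P5, 0 of 199 assays passed after adjustment in limma and 14 passed unadjusted (7.04%). Between P15 and P25, 0 passed after adjustment and 22 passed unadjusted (11.1%). Beside miR-148a, miR-375 differed unadjusted within both sides, by 3.47 cycles from E20 to P5 (SE 1.17) and by 2.23 from P15 to P25 (SE 0.96), and miR-214 within the late side, by -2.44 (SE 0.91). let-7b, miR-320, miR-220 and miR-683 differed within neither side at an unadjusted p of 0.05. miR-17 lay at 1.26 ± 0.63 at P15 (SD, n = 2) and at -1.60 ± 0.86 at P25 (n = 3), and miR-434-3p at 2.96 ± 1.06 and -0.56 ± 2.77 (n = 3 each), so that for these 2 the lower late mean lay mostly at P25.

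The comparison splits into P15 against E20 and P25 against P5, which share no sample. From E20 to P15, 1 assay was called in limma (0.503%), and from P5 to P25, 8 were called (4.02%). miR-375 was called in both, with 7.64 (SE 1.07, adjusted p = 0.00149) and 6.39 cycles (SE 1.07, adjusted p = 0.0091). miR-220, miR-683, miR-214, miR-301a, miR-17 and miR-434-3p were called from P5 to P25 alone. miR-335-5p, the remaining assay of the 8, had a CT in 1 P25 sample alone (-4.60, CT 38.3 in P25 replicate 3). Its difference of -6.32 cycles from P5 to P25 thus rests on 1 faint well. A call on 1 side is no difference between the 2: the test of the difference passed 0 assays after adjustment in limma and 9 unadjusted (4.52%). Of the 199 assays, 81 were higher and 60 lower at the later age in both, and 58 had opposite signs. All 7 called assays had the same sign in both. Of the 16 tested Dlk1-Dio3 assays 14 were lower in both, of the 7 miR-200 assays 7 were higher in both, and of the 10 let-7 assays 9 were higher in both. The pooled calls and list medians were made from these same samples, so shared signs are no separate support for them.

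**Figure D5:**
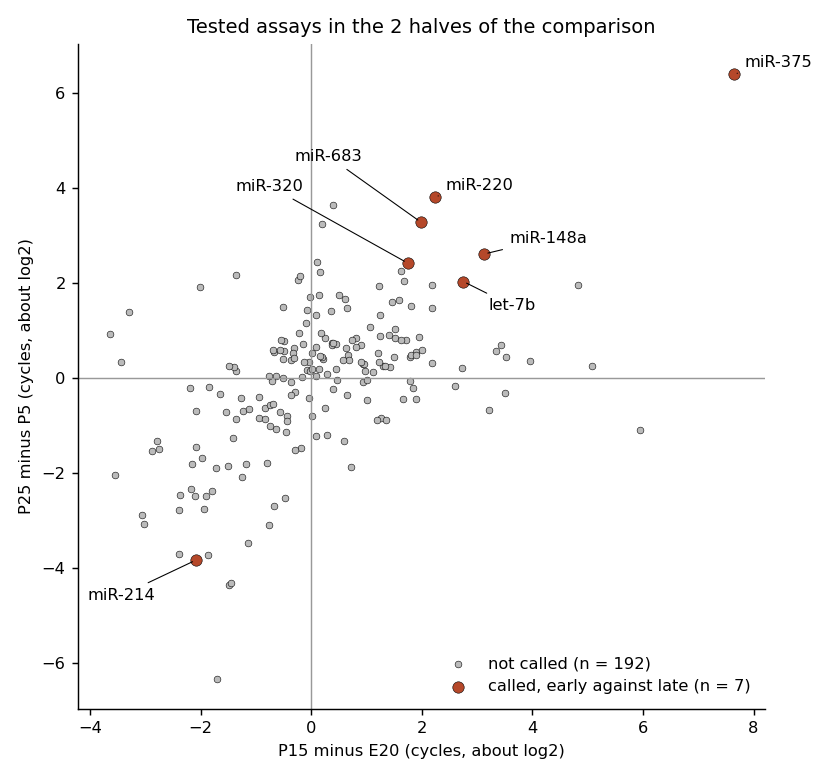
Difference of each of the 199 tested assays from E20 to P15 (horizontal axis) and from P5 to P25 (vertical axis), in cycles. The 7 assays called between the pooled sides are marked, and they lie in the upper right or, for miR-214, the lower left quadrant, with miR-375 farthest from 0 at 7.64 and 6.39. They were called from these same samples.

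Assays with a shared seed had the same sign in some families and opposite signs in others. In this RefSeq set, seeds held by at least 4 tested assays with 1 sign were AAAGUGC, with 4 assays lower late (median -1.86), and GUAAACA of the miR-30 family, with 4 higher late (median 0.93). The latter 4 were miR-30a, miR-30c, miR-30e and miR-384-5p. The seed CAGUGCA held both signs, from -0.80 (miR-148b) to 2.87 (miR-148a), and the seed AGCAGCA of the miR-15/16 family ran from -0.93 to 2.15. The median GC content of the 98 tested assays with a RefSeq sequence was 45.5%, that of the 9 higher late at an unadjusted p of 0.05 was 42.9%, and that of the 19 lower late was 45.5%.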

How the data were processed

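miRNA was measured by qRT-PCR in 12 samples, 3 each at E20, P5, P15 and P25, grouped by their labels. The authors deposited raw CT values, scores on a log scale, without normalization, imputation or pooling, and the assays' primers (Exiqon) were read as named in the table. Undetermined wells were taken as missing and control wells were left out of tests. As in the study's methods, values are relative to the median CT over all miRNA assays measured on an array. Undetermined wells were not filled in for the tests, unlike in the study, whose k-nearest neighbor imputation was run as an alternative (k = 10).

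Late and early means of the measured values were compared by limma 3.58.1 in R 4.3.3 (lmFit, eBayes) in a model of the 2 sides, and ages in a model of 4 means, with Benjamini-Hochberg adjustment over the 199 tested assays. Exact two-sided permutation tests used numpy 2.4.6, Fisher's exact tests scipy 1.17.1, and figures matplotlib 3.10.9. The procedure was tested on simulated data. Folds assume 2 times more template per cycle. High CTs are the least precise, and no depth beyond the CT is known. P-values set a difference against the spread between these samples, which in the model of the 2 sides includes differences between the 2 ages of a side.

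Named assays were all that limma called, assays with a CT in at least 5 samples on 1 side and at most 1 on the other, and up to 4 assays of each of 25 lists with the largest differences. miR-541, miR-450a-5p, miR-758, miR-668, let-7i, miR-20a the rat assay of miR-450a, the other assays of miR-421 and miR-146b, and the 10 assays that met the requirement late alone were named after their values were seen. The members and lists were chosen with earlier results of these data known. Alternatives covered the filter, missing wells, the reference, the CT limit, the statistics, averaged mouse and rat assays, the replicate block, and each sample or age left out.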

Additional observations from a re-analysis of the deposited data

Results flagged for a closer look

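Each side's highest and lowest values were compared with the next value for the 34 assays examined one by one and for 2 summaries of the arrays, 72 groups in all, of which chance alone would set apart about 3.6. Values stood apart in 2. miR-199a-3p in P15 replicate 1 was at -1.83, while the other 5 late samples lay between 1.36 and 3.10, and the gap was 0.647 of the range. miR-145 in E20 replicate 1 was at -2.97, while the other 5 early samples lay between 4.04 and 6.58, and the gap was 0.734 of the range.

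The control assay UniSp6 CP, which entered no comparison, gave a CT in 8 of the 12 samples, between 34.2 and 38.8, in 3 early and 5 late samples. The blank wells gave 0 CTs in 24 wells.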

How the results depend on the processing

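The 7 assays called between the sides became between 2 and 17 when 1 sample was left out. Other fits of the same values called 15 (4 age means), 11 (trend and robust eBayes), 26 (array weights) and, with the replicate number as a block, 17. The methods' t-test passed 45 unadjusted and 5 adjusted, and limma 49 unadjusted. Calls numbered 4 with at least 2 values on each side, 17 and 24 with k-nearest neighbor imputation of the tested and of all 286 assays, 20 with undetermined wells at CT 40 (3 higher and 17 lower), and 14 with CTs above 37 left out (4 and 10). By reference they numbered 21 with the common assays' median and 29 with their mean, 4 with the deposited array median, 24 without normalization and 0 with the small nuclear RNAs. These references moved the median of all tested assays to 0.38, 0.02, 0.17, -1.05 and 1.40. Without E20, P5, P15 and P25 they numbered 2, 3, 28 and 0. Without P5 replicate 1 and P15 replicate 1 together, a setting chosen after seeing the data, 10 were called. The cause of these changes was not tested.

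The permutation test passed 47 unadjusted and, with the median of the common assays, 19 adjusted, and 0 under every other alternative run. Fisher's test passed 6 unadjusted. Unadjusted counts were 14 between E20 and P5, 22 between P15 and P25 and 9 for the difference between P15 against E20 and P25 against P5. With 1 sample left out these comparisons called 0 to 3, 0 to 1 and 0 to 1 assays, and with the median of the common assays the first called 1. let-7a and its passenger strand let-7a* reversed without normalization, to -0.03 and -0.04.

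The replicate numbers were not taken as pairs. Deviations from the age means correlated above 0.1 in 6 of 6 same-numbered pairs with P5 (0.126 to 0.563) but in 1 of 6 with E20 (-0.234 to 0.123). The block raised the calls from 7 to 17, the 7 among them, and moved the unadjusted count from 49 to 50 (23 higher and 27 lower late), and with it the 3 comparisons of ages again passed 0 adjusted and 16, 22 and 12 unadjusted. The reference that ranks undetermined wells highest was not run, since P15 replicate 1 had a CT for fewer assays (179) than lacked it. Faint assays limit the comparison: 166 assays could be tested with CTs up to 37 and 123 with CTs up to 35.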

Other observations

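Outside the lists, 9 further assays passed an unadjusted p of 0.05 in limma without passing after adjustment, and they were singled out after their values were seen. miR-467d (2.66), rat miR-293 (2.28), miR-672 (1.52), miR-615-3p (1.26), miR-193 (1.19) and miR-676 (1.15) had a higher late mean. miR-33 (-2.09), which lies in an intron of the sterol regulator Srebf2, miR-324-5p (-1.81) and miR-325 (-1.74) had a lower late mean. Their adjusted p-values in limma lay between 0.157 and 0.191.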
